A study of Mus musculus with 8 samples.

Results

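The 9 genes described here act in the absorption and metabolism of retinoids, the vitamin A compounds, and were listed by name, with earlier results of these data known, and not by a cut on measured values. They are Scarb1, Bco1 and Isx of carotenoid uptake and cleavage, Rbp2 and Lrat of retinol binding and esterification, Rdh7 and Aldh1a1 of retinoid oxidation, and the receptor genes Rarb and Rxra. All 9 were matched by Ensembl identifier among the 45706 genes in the count tables, and all 9 were among the 14491 genes that passed the filter on low counts, which asks for about 10 counts or more in at least 4 libraries. Rdh7 would not have met that filter on its colonic libraries alone, nor Rarb on its small-intestinal ones alone. For these genes passing the filter is thus itself tied to the tissue.

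The samples were crypts freshly isolated by EDTA chelation from the small intestine (SI) and the colon (COL) of 4 wild-type C57BL/6N donor mice, 2 female and 2 male. The study's organoid methods isolated crypts from the proximal small intestine with the villi scraped off. For the colon they used more EDTA for a longer time and named no scraping. Its sequencing methods give no separate crypt procedure, and a difference in preparation cannot be told apart from the tissue. No allele was altered and no treatment was given in either group, and the mice's age is not given in the sources used here. Each mouse gave 1 SI and 1 COL library of bulk RNA-Seq, 8 libraries in all. A library is named here by tissue and replicate number, so that SI1 and COL1 came from the same animal.

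Vitamin A reaches the intestine as retinyl esters and as plant carotenoids such as β-carotene. In absorptive enterocytes the scavenger receptor encoded by Scarb1 takes up carotenoids, BCO1 cleaves β-carotene to retinaldehyde, retinol is carried by the binding protein RBP2 and esterified by LRAT, and the esters leave in chylomicrons. Part of the retinaldehyde is oxidized to retinoic acid, which binds retinoic acid receptors (RARs) paired with retinoid X receptors (RXRs) on DNA. The intestinal homeobox factor ISX, induced by retinoic acid, represses Bco1 and Scarb1 and so closes a feedback loop on vitamin A uptake.

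The sequences just upstream of the annotated start of 4 members that were higher in SI are shown. Which starts were used in these crypts was not measured. The sequences were taken from RefSeq on GRCm38.p6, which has the coordinates of mm10, and 8 of the 9 members matched, with 11 windows of 250 bases. The Rbp2 window is chr9:98490287-98490536, plus strand, inside an intron of the longer GENCODE gene model. The Bco1 window is chr8:117095615-117095853, plus strand, with 11 bases of untranslated exon left off its 3′ end. The Lrat window is chr3:82903975-82904224 and the upstream Rdh7 window is chr10:127889248-127889497, both on the minus strand and outside the GENCODE gene. Capitals mark every match, on either strand, to the motifs named after the sequences.
Rbp2: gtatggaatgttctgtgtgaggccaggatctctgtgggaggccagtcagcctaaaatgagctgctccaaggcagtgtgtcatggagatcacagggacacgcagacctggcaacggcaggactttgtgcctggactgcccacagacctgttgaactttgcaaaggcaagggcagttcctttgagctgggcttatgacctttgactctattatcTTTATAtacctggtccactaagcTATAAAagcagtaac
Bco1: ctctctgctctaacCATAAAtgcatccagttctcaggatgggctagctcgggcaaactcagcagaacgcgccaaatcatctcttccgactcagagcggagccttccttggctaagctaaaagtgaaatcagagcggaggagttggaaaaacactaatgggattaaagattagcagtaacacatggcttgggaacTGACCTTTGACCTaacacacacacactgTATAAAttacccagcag
Lrat: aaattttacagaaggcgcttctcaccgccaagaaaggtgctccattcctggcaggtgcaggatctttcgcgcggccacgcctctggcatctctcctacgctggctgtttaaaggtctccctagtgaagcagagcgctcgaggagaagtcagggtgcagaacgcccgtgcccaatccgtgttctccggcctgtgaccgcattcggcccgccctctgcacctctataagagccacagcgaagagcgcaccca
Rdh7: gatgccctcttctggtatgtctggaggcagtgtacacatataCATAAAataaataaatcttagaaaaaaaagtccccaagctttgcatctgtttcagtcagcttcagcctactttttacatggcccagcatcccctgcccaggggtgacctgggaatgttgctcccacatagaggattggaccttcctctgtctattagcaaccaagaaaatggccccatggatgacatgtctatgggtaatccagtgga

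The motifs searched were the DR1, DR2 and DR5 direct repeats, to which RXR pairs bind, together with 4 short words. They were TTTATG, a word bound by the caudal homeobox factors of the gut, and GATAAG, a word bound by the zinc finger factors named after it. The others were TATAAA, the core promoter box, and TAATTG, a word bound by many homeobox factors. Positions count back from the start, so that -1 is the base before it. The Bco1 window held a DR1 repeat, read on the opposite strand, at bases -56 to -44, an arrangement found in 0.164% of the 32851 upstream windows of that length. It also held TATAAA at -28 to -23 and TTTATG, on the opposite strand, at -236 to -231. The Rbp2 window held TATAAA at -15 to -10 and, on the opposite strand, at -38 to -33, a motif in 12.4% of all windows. The Rdh7 window held TTTATG, on the opposite strand, at -208 to -203, as did 10.8% of all windows. A second Rdh7 window, chr10:127888734-127888983, held no match and is not shown because 84 of its bases are untranslated exon. No match was found in the Lrat window, nor in those of Isx, Aldh1a1 and Rxra. The Rarb window held a DR5 repeat, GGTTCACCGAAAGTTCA at chr14:16575513-16575529 on the minus strand, bases -53 to -37, and DR5 was found in 0.0883% of all windows. The whole Rarb window is untranslated exon in the GENCODE model and so is not shown beyond that repeat. DR2 was in 0.174%, GATAAG in 6.55% and TAATTG in 7.17% of all windows, and in no member's window. The windows of Lrat and Bco1 had 59.2% and 48.0% G and C and 18 and 7 CpG pairs, against medians of 52.4% and 6 over all windows, and that of Rbp2 had 50% and 2. The values of Bco1 are for its full window of 250 bases, including the untranslated bases that are not shown. A match is a description of the letters only.

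Library depth ran from 15969428 to 32908060 counts. Mitochondrial transcripts took 4.84% to 28.3% of counts in SI and 4.83% to 50.8% in COL, and exceeded 15% in SI2, SI3, COL1 and COL2. The colon segment marker Hoxb13 was higher in COL, and the proximal small-intestinal regulators Gata4 and Onecut2 were higher in SI. The ileal genes Fabp6 and Slc10a2 averaged 0.175 and 1.05 CPM (counts per gene scaled to a common library total) in SI against 4.17 and 33.8 CPM in COL, and both were higher in COL. The summed level of 10 villus enterocyte markers was 66800 to 149436 CPM in SI against 348.5 to 1106 CPM in COL, and all 10 were higher in SI. That of 6 colon surface epithelium markers was 427.9 to 1165 CPM in SI against 5330 to 35064 CPM in COL. Of these 6, 4 were higher in COL and 1 in SI. Crypt stem and proliferation markers summed to 118.6 CPM in SI1 and 441.6 to 644.4 CPM in the other SI libraries. In COL they summed to 275.8 to 538.3 CPM. Of these 9 genes, 1 was higher in SI, Olfm4, and 0 in COL. Olfm4 gave 161.0, 254.4 and 180.3 CPM of the sums in SI2, SI3 and SI4, and at most 3.50 CPM in COL. Lgr5 and Ascl2 went the other way, every SI library lying below every COL library, but neither passed the test. Fibroblast and muscle, and enteric neuron and glia markers summed to at most 11.2 and 3.60 CPM in any library. In bulk RNA, a difference in the number of cells of a type and a difference in RNA per cell cannot be told apart, and the part of villus enterocyte content in the results was not tested.

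The comparison of SI with COL crypts asks how the tissues differ in the wild-type state. Of the 9 retinoid genes, 5 were higher in SI (Rbp2, Rdh7, Bco1, Lrat and Rxra), 0 were higher in COL, and 4 did not pass the test (Isx, Scarb1, Aldh1a1 and Rarb). The test was edgeR's quasi-likelihood test with p-values adjusted over all genes tested and a threshold of 0.05. DESeq2 and limma-voom also called 0 as higher in COL, and in edgeR 0 were so at an unadjusted p below 0.05. Over all 14491 genes tested, 28.4% passed, 15.5% as higher in SI and 12.9% as higher in COL. With at least 10 counts asked of every library, Rdh7 and Rarb had no value. Of the 7 members left, 4 were then higher in SI, as were 1808 of the 10765 genes tested. Fold changes are given on the log2 scale as SI over COL, with the standard error (SE), and had a median of 1.18 over the 9 genes and of -0.09 over the 14491.

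**Figure D1:**
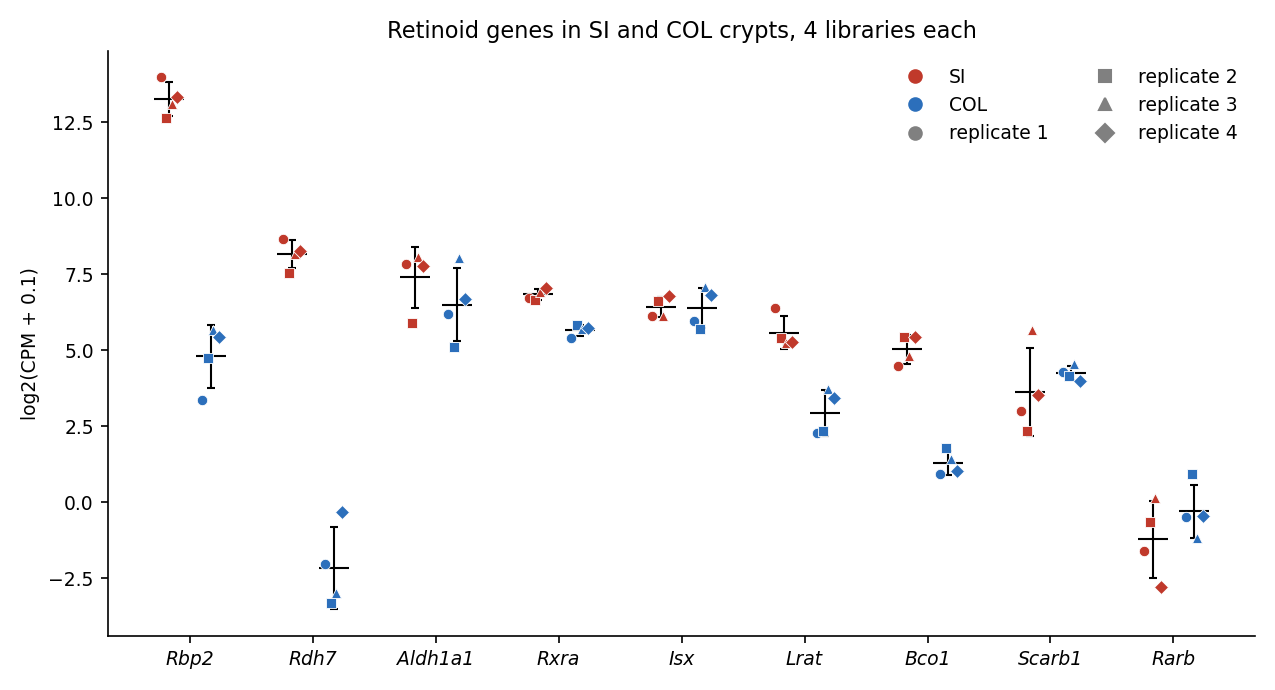
Level of each of the 9 retinoid genes in each library, as log2(CPM + 0.1), with SI in red, COL in blue, a marker shape for each replicate number (mouse), and black bars for the mean and SD of 4 libraries. Rbp2, Rdh7, Rxra, Lrat and Bco1 show no overlap between the tissues, while the points of Aldh1a1, Isx, Scarb1 and Rarb overlap.

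Rbp2, the cellular retinol-binding protein of the absorptive enterocyte, was the most abundant of the 9 genes in SI. Its levels were 16218, 6458, 8884 and 10440 CPM in SI1 to SI4 and 10.1, 26.7, 50.5 and 43.7 CPM in COL1 to COL4. The lowest SI library lay far above the highest COL library. SI averaged 10500 ± 4149 CPM and COL averaged 32.7 ± 18.1 CPM (SD, n = 4), a ratio of 321 and a log2 fold change of 8.32 (SE 0.84, 95% interval 6.47 to 10.18, edgeR adjusted p = 4.2e-05). Rbp2 took between 0.505% and 1.18% of all counts of an SI library and held ranks 5 to 17 by CPM among the genes tested there, against ranks 2474 to 7240 in COL. By log2 fold change it stood at position 84 of 14491. SI1, with the highest Rbp2, also had the highest villus enterocyte marker sum, 149436 CPM, and SI2, with the lowest Rbp2, had the lowest, 66800 CPM. SI1 and SI2 were at the same time the SI libraries with the lowest and highest mitochondrial share, 4.84% and 28.3%. The part of either in the level of Rbp2 was not tested. The gene lies at chr9:98486115-98509781, plus strand, and none of the 50-base stretches of its longest transcript occurs in another gene.

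Lrat, which esterifies retinol for storage or export, was measured at 84.4, 42.2, 38.1 and 38.6 CPM in SI1 to SI4. In COL1 to COL4 it was at 4.72, 4.97, 13.2 and 10.7 CPM. The tissues did not overlap, and SI1, the highest library for Rbp2 too, stood apart from the other 3 SI libraries. SI averaged 50.8 ± 22.5 CPM and COL averaged 8.39 ± 4.22 CPM (SD, n = 4), with a log2 fold change of 2.59 (SE 0.42, 95% interval 1.66 to 3.52, edgeR adjusted p = 0.00091). Without SI1 the log2 fold change was 2.24. Lrat lies at chr3:82892579-82903973 on the minus strand.

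Bco1, the enzyme that cleaves β-carotene at its centre, was at 22.2, 43.1, 28.0 and 42.9 CPM in SI1 to SI4. In COL1 to COL4 it was at 1.82, 3.36, 2.62 and 1.97 CPM. Every SI library lay above every COL library, and SI1 was the lowest SI library for Bco1 while it was the highest for Rbp2 and Lrat. SI averaged 34.1 ± 10.6 CPM and COL averaged 2.44 ± 0.703 CPM (SD, n = 4), a log2 fold change of 3.81 (SE 0.35, edgeR adjusted p = 2.4e-05). Bco1 lies at chr8:117095854-117133720 on the plus strand.

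Rdh7, a short-chain dehydrogenase that oxidizes retinol and some steroids, had the largest fold change of the 9 genes. Its levels were 406.4, 187.3, 291.7 and 308.7 CPM in SI1 to SI4. In COL1 to COL4 it was counted 5, 0, 1 and 34 times, or 0.147, 0, 0.0267 and 0.712 CPM. Rdh7 was thus well detected in every SI library and close to the limit of detection in COL. SI averaged 298.5 ± 89.7 CPM and COL averaged 0.221 ± 0.333 CPM (SD, n = 4), with a log2 fold change of 10.17 (SE 0.96, 95% interval 8.07 to 12.27, edgeR adjusted p = 2.8e-05), at position 27 of 14491. Without COL4, which held 34 of the COL counts, the log2 fold change was 12.02. Rdh7 lies at chr10:127884028-127888817 on the minus strand. Of the 50-base stretches of its transcript, 13.2% also occur in its relatives, Rdh18-ps, Rdh1 and Rdh16f1 foremost. Reads from these stretches cannot be assigned with certainty, and how they were counted or left out is not given in the sources used here.

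Rxra, which encodes the RXR partner of many nuclear receptors, showed the smallest of the 5 differences, and its SD was 12.1% of the mean in each tissue, the lowest share among the 9 genes. Its levels were 106.5, 101.8, 120.1 and 132.7 CPM in SI1 to SI4 and 42.1, 56.4, 51.5 and 53.2 CPM in COL1 to COL4. SI averaged 115.3 ± 13.97 CPM and COL averaged 50.8 ± 6.17 CPM (SD, n = 4), a log2 fold change of 1.18 (SE 0.24, 95% interval 0.66 to 1.71, edgeR adjusted p = 0.0034). The SI and COL libraries did not overlap. With scaling by library size alone the median over the 14491 genes moved by -0.73, and Rxra had 0.45 (edgeR adjusted p = 0.18), which is 1.27 above that median. In the 4 libraries with a mitochondrial share above 15% it was 1.08 (adjusted p = 0.087) and in the 4 below 15% it was 1.18 (adjusted p = 0.009). Rxra lies at chr2:27676440-27762957 on the plus strand.

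For each of these 5 genes SI lay above COL in 4 of 4 mice, and the exact two-sided permutation test of log2(CPM + 0.1) gave p = 0.0286, the smallest that 70 assignments of 4 against 4 libraries allow. Over all genes tested, the CPM ranges of the tissues did not overlap for 33.5%, and did so with SI above COL for 17.8%. The exact sign-flip test over the 4 mice cannot go below 0.125 and gave that value for all 5. In the 4 libraries with a mitochondrial share above 15% and in the 4 below, the log2 fold change was 8.62 and 8.13 for Rbp2, 11.13 and 9.80 for Rdh7, 3.70 and 3.82 for Bco1, and 2.95 and 2.35 for Lrat.

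**Figure D2:**
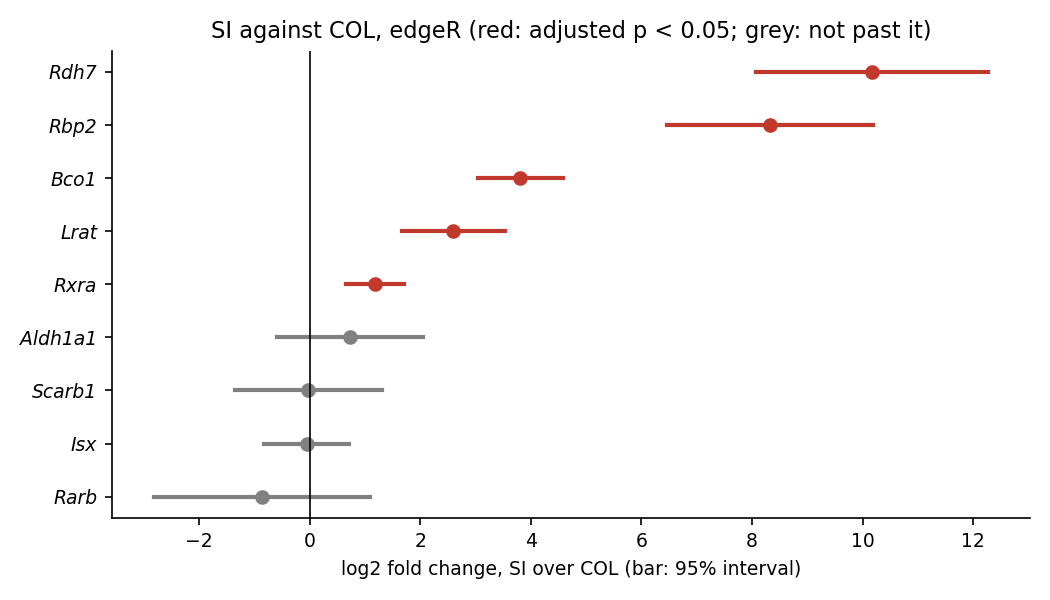
Log2 fold change of SI over COL for each of the 9 retinoid genes (points) with the 95% interval of edgeR's quasi-likelihood fit (bars), red where the adjusted p was below 0.05 and grey where it was not. The 5 red intervals lie above 0, from Rxra at 1.18 to Rdh7 at 10.17, and the 4 grey intervals include 0.

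Isx, the homeobox repressor of Bco1 and Scarb1, was expressed in both tissues. Its levels were 70.1, 97.8, 70.4 and 110.5 CPM in SI1 to SI4 and 62.2, 52.3, 135.1 and 113.3 CPM in COL1 to COL4. The tissues overlapped, and the 2 highest libraries were COL3 and COL4. SI averaged 87.2 ± 20.3 CPM and COL averaged 90.7 ± 39.8 CPM (SD, n = 4), and the log2 fold change was -0.06 (SE 0.35, 95% interval -0.82 to 0.70, edgeR adjusted p = 0.92). COL3 and COL4 also had the highest sums of colon surface epithelium markers, 35064 and 19716 CPM, against 7711 and 5330 CPM in COL1 and COL2. Car1 was the largest part of each COL sum, and other genes of the list were ordered otherwise, Aqp8 and Slc26a3 being highest in COL2 at 540.7 and 466.7 CPM. COL3 and COL4 are at the same time the COL libraries with the lower mitochondrial shares, 6.94% and 4.83%, and the part of either in the level of Isx was not tested. In the libraries with a mitochondrial share above 15% the log2 fold change of Isx was 0.45 and in those below it was -0.47, neither past the threshold (edgeR adjusted p = 0.48 and 0.23). Isx lies at chr8:74873173-74893506 on the plus strand.

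Scarb1, the scavenger receptor for lipoproteins and carotenoids, was at 7.97, 4.95, 51.5 and 11.4 CPM in SI1 to SI4. In COL1 to COL4 it was at 19.6, 17.9, 23.6 and 16 CPM. SI3 lay above every COL library, and the other 3 SI libraries lay below every COL library. SI averaged 18.9 ± 21.8 CPM and COL averaged 19.3 ± 3.23 CPM (SD, n = 4), with a log2 fold change of -0.02 (SE 0.61, 95% interval -1.36 to 1.31, edgeR adjusted p = 0.98). This result rests on SI3, since without it the log2 fold change was -1.22 (edgeR adjusted p = 0.034), higher in COL. In the libraries with a mitochondrial share above 15%, SI3 among them, the log2 fold change was 0.51 (adjusted p = 0.73), and in those below it was -1.04 (edgeR adjusted p = 0.056). Scarb1 lies at chr5:125277087-125341094 on the minus strand.

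Aldh1a1, which oxidizes retinaldehyde to retinoic acid, was at 232.1, 60.3, 272.3 and 217.5 CPM in SI1 to SI4. In COL1 to COL4 it was at 73.6, 34.8, 261.7 and 102.5 CPM. The lowest value of each tissue came from the mouse of replicate 2 and the highest from that of replicate 3. SI averaged 195.6 ± 93.1 CPM and COL averaged 118.1 ± 99.6 CPM (SD, n = 4), with a log2 fold change of 0.73 (SE 0.60, 95% interval -0.59 to 2.04, edgeR adjusted p = 0.40). SI lay above COL in 4 of 4 mice, by 1.66, 0.79, 0.06 and 1.08 on the log2(CPM + 0.1) scale. With the mouse as a block the log2 fold change was 0.90 in edgeR (adjusted p = 0.09) and 0.93 in limma-voom (adjusted p = 0.048), so that the call depended on the tool. Without COL3 the log2 fold change was 1.48 (edgeR adjusted p = 0.07). Aldh1a1 lies at chr19:20492715-20643465 on the plus strand, and 6.54% of the 50-base stretches of its transcript are shared with its neighbour in sequence, Aldh1a7.

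Rarb, the retinoic acid receptor gene that is itself a textbook target of retinoic acid, was near the detection limit in both tissues. It was counted 5, 9, 20 and 1 times in SI1 to SI4 and 21, 29, 13 and 30 times in COL1 to COL4. The levels ran from 0.0458 to 1.01 CPM in SI, those of COL ran from 0.348 to 1.80 CPM, and the tissues overlapped. The log2 fold change was -0.87 (SE 0.89, 95% interval -2.82 to 1.09, edgeR adjusted p = 0.50). Rarb lies at chr14:16430839-16819156 on the minus strand. Top2b and an antisense gene on the plus strand cover 38.4% of its exon bases, and 54.1% of the 50-base stretches of its longest transcript are shared with Top2b, so that the few counts cannot be assigned with certainty where the counting did not use strand.

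**Figure D3:**
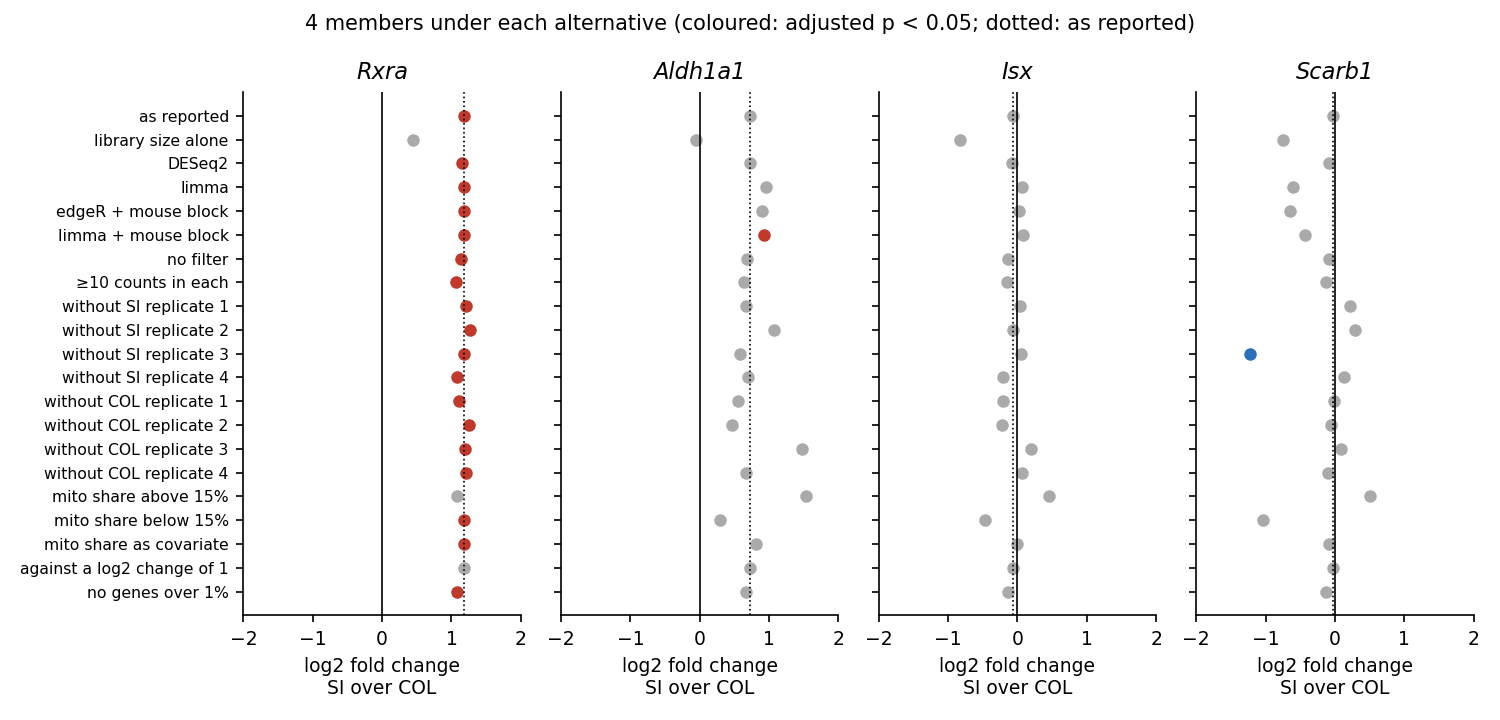
Log2 fold change of SI over COL (x axis) of Rxra, Aldh1a1, Isx and Scarb1 under each way of processing or leaving out libraries (y axis), coloured where the adjusted p was below 0.05, red for SI and blue for COL, with a dotted line at the value reported. Rxra stayed between 0.45 and 1.27, Aldh1a1 was coloured only in limma-voom with the mouse block, and Scarb1 was coloured only without SI3, at -1.22.

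Compared per kilobase of exon, Rbp2 stood first in SI at 10915 ± 4313 CPM per kilobase (SD, n = 4), followed by Rdh7 at 177.9, Isx at 48.6, Aldh1a1 at 39.6, Rxra at 21.1, Bco1 at 13.4, Lrat at 9.50, Scarb1 at 2.23 and Rarb at 0.0869. In SI the neighbours Isx and Aldh1a1, Aldh1a1 and Rxra, and Bco1 and Lrat overlapped between libraries, and the other neighbours did not. In COL, Isx stood first at 50.6 CPM per kilobase, then Rbp2 at 34.0, Aldh1a1 at 23.9, Rxra at 9.30, Scarb1 at 2.27, Lrat at 1.57, Bco1 at 0.960, Rarb at 0.161 and Rdh7 at 0.132. Only the steps from Rxra to Scarb1 and from Bco1 to Rarb were free of overlap there. Rdh7 thus held the second place in SI and the last in COL.

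Against their closest relatives, the members differed in how far they dominated. Counts per exon length were compared within each library, which does not depend on the scaling between libraries, and p-values were adjusted over the 4 ratios tested. Of the 3 RXR genes, Rxra made up 88.8 ± 2.71% in SI against 66.5 ± 6.29% in COL (SD, n = 4). The difference of the log2 ratio of Rxra to Rxrb plus Rxrg was 2.00 (exact permutation p = 0.0286, the smallest possible, adjusted p = 0.057). Every SI library, from 85.1% to 91.2%, lay above every COL library, from 61.5% to 74.9%. Rxrb averaged 10.5 ± 2.30 CPM in SI against 18.8 ± 5.30 CPM in COL (log2 fold change -0.84, edgeR adjusted p = 0.057), and Rxrg was under the filter.

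Among the RAR genes, Rara was higher in SI (20.9 ± 6.81 against 8.49 ± 1.496 CPM, SD, n = 4, log2 fold change 1.30, edgeR adjusted p = 0.0081). Rarg was higher in COL (0.435 ± 0.310 against 3.11 ± 1.15 CPM, log2 fold change -2.84, edgeR adjusted p = 0.0083). The call of Rara was lost with library size alone (0.56), in the libraries with a mitochondrial share above 15% (0.53) and against a log2 change of 1, and that of Rarg was lost above the 15% share (-2.67). Rarb made up 2.16 ± 2.16% of the 3 RAR genes in SI and 5.52 ± 3.91% in COL, a log2 ratio difference of -1.99 that did not pass the exact permutation test (p = 0.20, adjusted p = 0.20). Rara was the most abundant RAR gene per length in all 8 libraries.

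**Figure D4:**
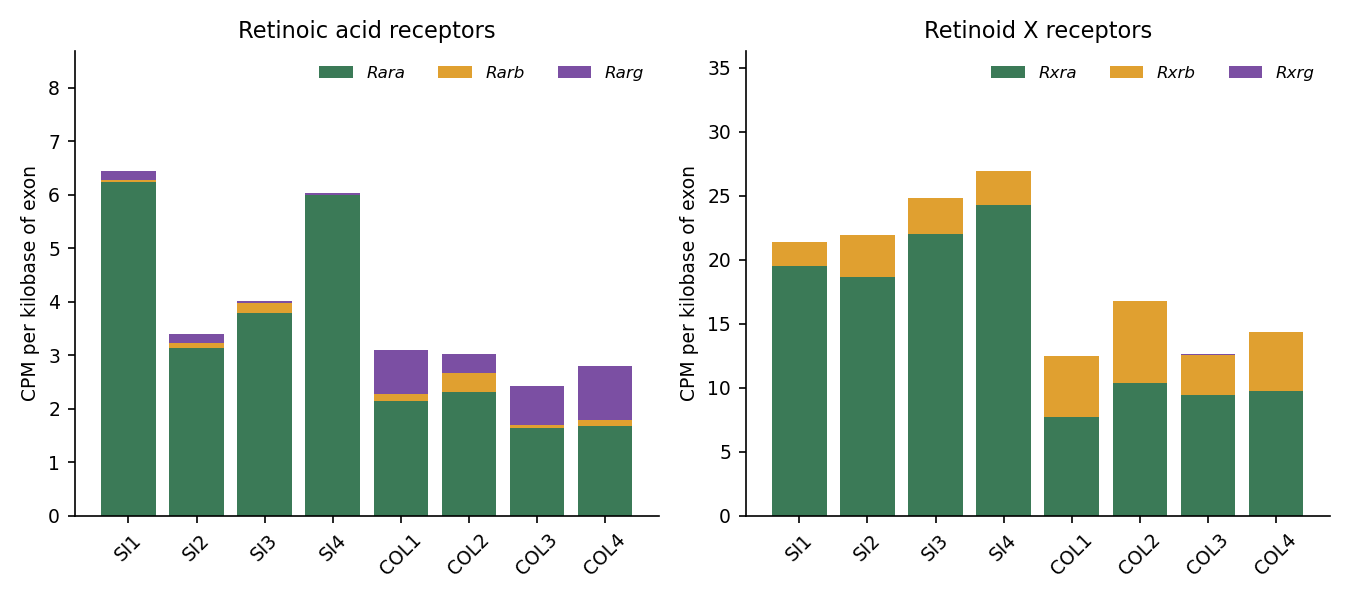
Level per kilobase of exon (y axis, CPM per kilobase) of the 3 RAR genes and the 3 RXR genes in each library (x axis), as stacked bars that start at 0. Rxra makes up 85.1% to 91.2% of the RXR bars in SI and 61.5% to 74.9% in COL, and Rarg is visible mainly in COL.

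Of the other retinaldehyde dehydrogenases, Aldh1a3 averaged 0.272 CPM in SI against 0.834 CPM in COL, while Aldh1a2 was under the filter. The log2 ratio of Aldh1a1 to both together differed by 2.55, which did not pass (exact permutation p = 0.17, adjusted p = 0.20). Aldh1a7, which shares sequence with Aldh1a1 and was not part of that ratio, was higher in SI (39.1 ± 14.6 against 10.05 ± 6.99 CPM, log2 fold change 1.95, edgeR adjusted p = 0.027). That call was lost without SI1, SI4 or COL1, with library size alone and against a log2 change of 1.

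Other genes of retinoid biology were listed by role, 81 in all, of which 62 passed the filter and 19 did not. Among the 62, 18 were higher in SI, 11 were higher in COL and 33 did not pass the test, with a median log2 fold change of 0.57. Of the 14491 genes, 15.5% were higher in SI and 12.9% in COL, so that both shares are read against these. With scaling by library size alone, 15 passed as higher in SI and 19 as higher in COL, where over all genes 1115 and 4788 passed. Of the 29 calls, 20 were kept in the same direction when at least 10 counts were asked of every library, and 9 then had no value (Adh4, Cd36, Dhrs9, Lpl, Npc1l1, Nr1i3, Rarg, Rbp4 and Rbp7), so that for these passing the filter can be tied to the tissue. In the libraries with a mitochondrial share above 15%, 24 calls were kept, and Rara, Rarg, Pparg, Nr1h4 and Ces1d were not past the threshold. Among the 29 calls, none turned its direction under any alternative that gave a value.

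**Figure D5:**
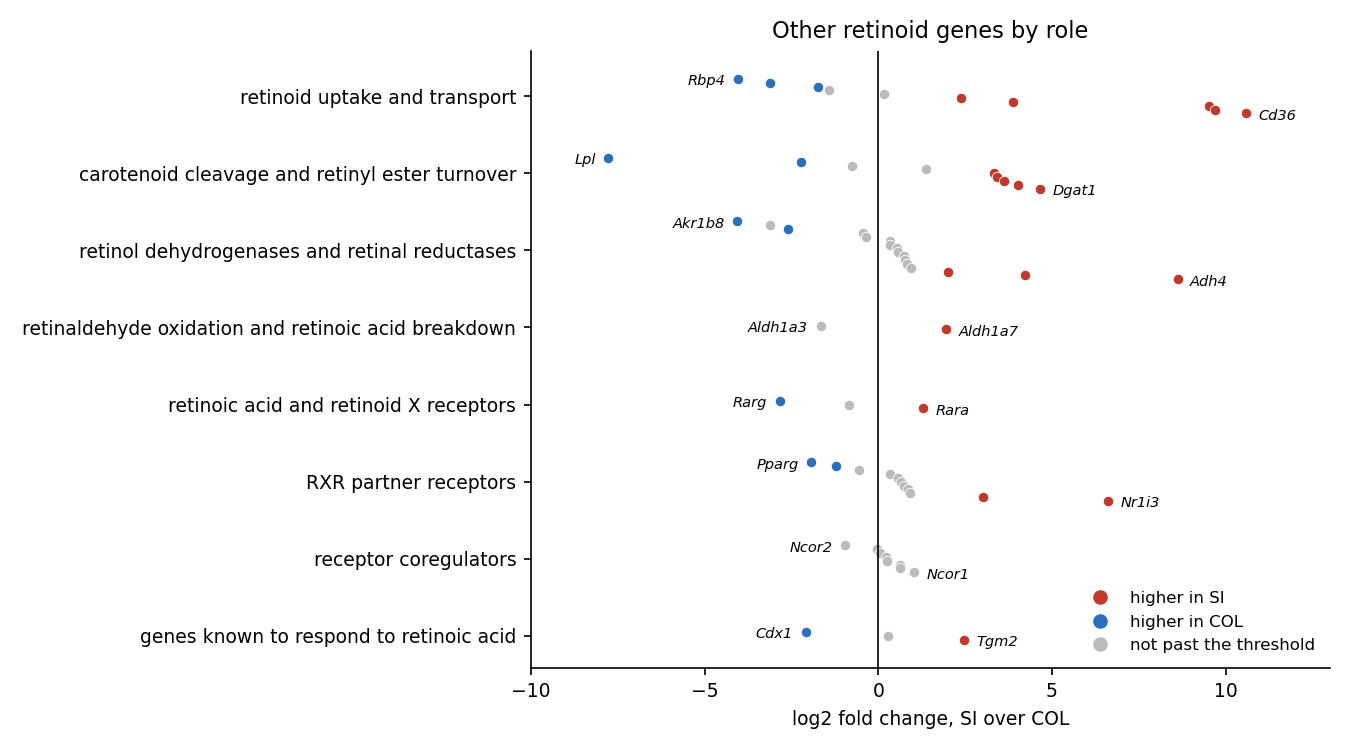
Log2 fold change of SI over COL (x axis) of the 62 other retinoid genes that passed the filter, in a row for each role, red where higher in SI, blue where higher in COL and grey where the edgeR adjusted p was not below 0.05. The genes furthest from 0 in each row are named, and uptake and transport genes span from Rbp4 at -4.03 to Cd36 at 10.60.

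Of 14 uptake and transport genes, 10 were tested, 5 were higher in SI and 3 in COL. Higher in SI were Cd36, a fatty acid and carotenoid transporter (232.6 ± 143.5 against 0.128 ± 0.103 CPM, log2 fold change 10.60), Npc1l1, the sterol transporter (9.69), and Mttp, which loads lipid onto chylomicrons (3990 ± 1237 against 5.42 ± 4.25 CPM, 9.52). Abca1, a lipid exporter (3.89), and Rbp7, a further cellular retinol-binding protein (2.38), were higher in SI too. The call of Rbp7 was lost without SI3, SI4 or COL1, in limma-voom and with library size alone. It was also lost below the 15% mitochondrial share and against a log2 change of 1. Higher in COL were Rbp4, the serum retinol-binding protein (0.555 ± 0.294 against 9.19 ± 5.41 CPM, -4.03), Ttr, its carrier in blood (-3.12), and Stra6l, a relative of the RBP4 receptor (-1.72).

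Of 11 genes of carotenoid cleavage and retinyl ester turnover, 9 were tested, 5 were higher in SI and 2 in COL. Bco2, which cleaves carotenoids off centre, had a log2 fold change of 3.42 (151.0 ± 27.9 against 14.1 ± 3.45 CPM), close to the 3.81 of Bco1. Dgat1, an acyltransferase that can also esterify retinol, had 4.65 (432.7 ± 65.1 against 17.2 ± 0.728 CPM). Dgat2 (3.32), the lipase gene Lipe (4.03) and the carboxylesterase gene Ces2e (3.62) were higher in SI as well. Lpl, lipoprotein lipase, was higher in COL (0.121 ± 0.128 against 26.1 ± 16.8 CPM, -7.78), as was Ces1d (-2.22). The call of Ces1d was lost without SI4, COL1 or COL3, above the 15% mitochondrial share and against a log2 change of 1.

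Of 18 retinol dehydrogenases and retinal reductases, 16 were tested, 3 were higher in SI, 2 in COL and 11 did not pass. Adh4, an alcohol dehydrogenase active on retinol, was higher in SI (19.0 ± 14.7 against 0.0387 ± 0.0641 CPM, log2 fold change 8.62), as were Rdh9 (4.21) and Dhrs4, a retinal reductase (2.00). The value of Rdh9 is uncertain, since 92.3% of its 50-base stretches are shared with relatives. Akr1b8, an aldo-keto reductase, was higher in COL (6.85 ± 3.59 against 114.6 ± 63.6 CPM, -4.06), as was Dhrs9 (-2.61). Of the other relatives of Rdh7, Rdh1 was at -3.13 (edgeR adjusted p = 0.053) and Rdh16 at 0.93 (adjusted p = 0.19), neither past the threshold.

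Of the 7 genes of retinaldehyde oxidation and retinoic acid breakdown, only Aldh1a3 and Aldh1a7 were tested. The retinoic acid hydroxylase genes Cyp26a1, Cyp26b1 and Cyp26c1 were all under the filter, with means of at most 0.0585 CPM in either tissue. Among 11 nuclear receptor genes whose products pair with RXRs, Nr1i3 (13.3 ± 4.07 against 0.121 ± 0.107 CPM, 6.61) and Nr1h3 (3.03) were higher in SI and Pparg (-1.93) and Nr1h4, the bile acid receptor (-1.22), were higher in COL, while 7 did not pass. Above the 15% mitochondrial share the log2 fold changes of Pparg and Nr1h4 were -1.41 and -1.06 and did not pass, nor did Nr1h4 against a log2 change of 1. Of the 8 receptor coregulators 0 passed in edgeR, with 3 at an unadjusted p below 0.05, while DESeq2 called 2 and limma-voom 1. The nearest was Ncor1 at 1.04 (edgeR adjusted p = 0.052), which passed in both of these and in edgeR with the mouse block. Of 8 genes known to respond to retinoic acid, 3 were tested, with Tgm2 higher in SI (50.8 ± 11.3 against 9.05 ± 5.04 CPM, 2.48) and Cdx1 higher in COL (23.7 ± 1.43 against 101.4 ± 31.9 CPM, -2.09).

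Whether the tissue difference depended on the sex of the donor was tested with an interaction term, with 2 libraries per tissue and sex. None of the 9 retinoid genes passed, and 0 of all 14491 genes did in edgeR (0.0%), with 761 at an unadjusted p below 0.05, or in limma-voom, with 806. The nearest of the 9 was Rdh7, with a difference of 3.70 on the log2 scale (SE 1.44, unadjusted p = 0.02, edgeR adjusted p = 0.91). That value rests on COL counts near the limit of detection, 5 and 34 in COL1 and COL4 (female) and 0 and 1 in COL2 and COL3 (male). In SI the libraries of the male donors were also those with a mitochondrial share above 15%, so that there sex and that share cannot be told apart.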

How the data were processed

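RNA of freshly isolated SI and COL crypts of 4 wild-type mice was sequenced as paired-end reads, and 8 libraries were analysed. Per the labels, the processing used Trimmomatic 0.36 and STAR 2.5.2b with mm10 among the builds named (mm9 is named too, with no role), and the deposited values are whole-number counts per Ensembl gene, with no normalization by the authors. The annotation release and the strand setting are not given in the sources used here. Of 45706 identifiers, 45143 matched GENCODE vM21, which gave symbols, exon lengths and coordinates (GRCm38, as mm10), and 563 did not.

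Counts were filtered by filterByExpr (minimum count 10, minimum total 15, 4 libraries), scaled by TMM and tested with edgeR 4.0.16 in R 4.3.3, without a term for the mouse, with Benjamini-Hochberg adjustment over the 14491 genes kept. The SE is the fold change divided by the root of F, and intervals are at 95%. CPM are counts scaled to the usual constant total per library after TMM. Exact permutation tests used log2(CPM + 0.1), or ratios with a pseudocount of 0.5, and were two-sided. Alternatives were limma 3.58.1 (voom), DESeq2 1.42.0, other scaling and filters, the mitochondrial share, the mouse as a block and leaving out each library. The scripts were tested on simulated data.

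The SI and COL libraries with the same replicate number are listed with the same donor mouse, so they are pairs from 1 animal. Their deviations from the tissue means correlated at -0.24, 0.39, -0.08 and 0.33. Libraries of a tissue came from separate animals and differed far beyond counting noise. Named were the 9 members, of each role list the genes past the threshold (up to 5 of largest change in each direction), the relatives of members, up to 3 defining genes of a marker list, and for each member the 2 genes of most similar pattern. Members and lists were chosen with earlier results of these data known. Of the 4 ratios over which p-values were adjusted, 1 is not reported here.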

Additional observations from a re-analysis of the deposited data

Results flagged for a closer look

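In 26 groups of 4 libraries (the 9 genes and 4 ratios in each tissue), 2 held a library that stood apart from the other 3 by Dixon's criterion, and chance gives about 1 in 20 groups. For Lrat, SI1 was at 84.4 CPM against 38.1 to 42.2 CPM in the other SI libraries. SI1 also had the highest villus enterocyte marker sum (149436 CPM) and the lowest sum of crypt stem and proliferation markers (118.6 CPM), and their part in the level of Lrat was not tested. For Scarb1, SI3 was at 51.5 CPM against 4.95 to 11.4 CPM in the other SI libraries. SI3 had a villus marker sum of 70196 CPM and a mitochondrial share of 22.7%, close to the 66800 CPM and 28.3% of SI2, where Scarb1 was lowest.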

How the results depend on the processing

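Of 177 log2 fold changes of the 9 genes under 19 or 20 alternatives each, 158 kept their direction and side of the threshold, including all those of Rbp2, Lrat, Bco1, Rdh7 and Rarb. No value was given for Rdh7 and Rarb with at least 10 counts in every library, or for Rbp2 without genes over 1% of a library. Isx changed sign in limma-voom (0.068), with the mouse as replicate block in edgeR (0.026) and limma-voom (0.074), and in libraries with a mitochondrial share above 15% (0.45), and ranged from -0.22 to 0.20 on leaving out a library. Scarb1 was 0.51 above that share and ranged from -1.22 to 0.29 on leaving out a library, with 1 member then higher in COL (otherwise 0). Aldh1a1 was -0.058 with library size alone and passed in limma-voom with the block (0.93). Rxra lost its call with library size alone, above the 15% share, and against a log2 change of 1 (1.18, adjusted p = 0.33). Pathway genes higher in COL numbered 19 with library size alone and 7 above the 15% share, and their total was 26 to 38 on leaving out a library. Over all genes tested, 2253 were higher in SI and 1863 in COL, but 1115 and 4788 with library size alone. Above the 15% share 2392 were called (1406 and 986), and against a log2 change of 1 it was 2072 (1089 and 983). The block gave 4072 calls over all genes and 33 pathway calls, adding Fabp5, Ncor1, Nr1i2 and Thra, and in edgeR it changed no call of the 9 genes. By sign-flip over the 4 pairs, the ratio of Rxra to its relatives (2.00) had p = 0.125, the smallest possible in this exact test, and 0 members could pass. The ratio of Aldh1a1 ranged from 1.74 to 4.13 on leaving out a library, with 4.13 without SI2. The causes were not tested. Counts were fewest for Rarb (1 to 30 per library) and for Rdh7 in COL (0 to 34).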

Other observations

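For each of the 9 genes, the genes of most similar pattern were sought by the Pearson r of log2 CPM over the 8 libraries, after subtraction of the tissue mean, among 7811 genes (7812 for Rdh7 and Rarb) with a mean log2 CPM of at least 3. These are descriptions over libraries that share depth and composition, picked as the highest of many, and no test was made. Rbp2 was followed most closely by Agmo (r = 0.993) and Pcx (0.989), Lrat by Gpr160 (0.981) and Clcn4 (0.980), and Aldh1a1 by Fech (0.987) and Ugt2b36 (0.973). Isx was followed by Mrpl44 (0.9754) and Ripk3 (0.9752), Scarb1 by Ugt2b35 (0.966) and Nudt19 (0.951), and Rxra by Zfp748 (0.982) and St3gal6 (0.962). The highest values for Bco1 were lower, Gprin3 (0.919) and Carmil1 (0.918), and those of Rdh7 were Eaf1 (0.955) and Ccl5 (0.946). For Rarb, at a few counts per library, they were Ppp1r9b (0.950) and Ptpn18 (0.940).

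Among markers of other cell types, Paneth cell markers summed to 555.8 to 3864 CPM in SI and 17.9 to 82.9 CPM in COL. Goblet cell markers summed to 2072 to 6326 CPM in SI and 11083 to 22845 CPM in COL. Muc2 was the largest part of each COL goblet sum (624.6 against 10674 CPM on average), and 3 of the 5 were higher in COL. Tff3 and Fcgbp averaged more in SI, at 667.9 and 2383 against 369.0 and 1504 CPM, neither past the threshold. General epithelial markers summed to 6459 to 11723 CPM in SI and 3228 to 8011 CPM in COL. Immune cell markers summed to 40.7 to 87.5 CPM in SI and 11.0 to 32.9 CPM in COL, with Cd3e, Cd8a and Itgam higher in SI. Endothelial markers summed to 0.137 to 3.56 CPM in SI and 3.29 to 11.3 CPM in COL. Of the 5 pancreatic acinar markers Cela1 gave nearly the whole sum of 8.82 to 16.8 CPM in SI and 79.6 to 208.9 CPM in COL, and Prss2 was at 0 in SI and Cpa1 and Pnlip at 0 in COL. The part of these cell types in the differences of the 9 genes was not tested.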
